A study of Homo sapiens with 2 samples.

Results

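Kinesins are motor proteins that hydrolyse ATP to move along microtubules or to take them apart. Mitotic kinesins build the spindle, move chromosomes and assist the final separation of daughter cells, and many of their genes are transcribed mainly in G2 phase and mitosis. Transport kinesins carry vesicles, organelles and protein complexes along microtubules in cells that need not divide, often through light chains and adaptors. The family was taken as all genes whose array symbol was KIF followed by a number and an optional final letter, with KIFC1 added, a rule that reads names and not values. It held 39 of 19775 genes read, with 81 of 41097 probe sets annotated to 1 gene, and was separated into 14 mitotic kinesins, 15 transport kinesins and 10 others. KIF4B was not analysed here. The members and the lists compared with them were chosen with earlier results of these data known.

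Gene expression was measured in AsPC-1, an established line of human pancreatic ductal adenocarcinoma (PDAC) cells. The cells received either siRNA against PGR, the progesterone receptor, or a negative control siRNA, and both groups shared the cell line and the transfection. Biotin-labelled cRNA of each condition was hybridised to 1 expression array, so that there were no replicates, nothing could be tested, and precision is limited by the number of arrays. The deposited values are linear intensities, and differences are given on the log2(intensity + 1) scale, PGR siRNA minus control.

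The brighter probe set of PGR had an intensity of 16.1 on the array labelled control and of 73.3 on that labelled PGR siRNA, and the dimmer one had 1.53 and 4.80. All of these lay below the signal floor of 97.9, the median of all values of probe sets annotated to 1 gene, and their order goes against the labels. The arrays are named here by their labels, on which all directions rest. Where a pair of intensities is given, the array labelled control comes first. Ductal epithelial markers reached the floor on both arrays for 6 of 7 genes, with summed intensities of 116547 and 121728. Fibroblast markers did so for 1 of 4, endothelial markers for 0 of 3 and leukocyte markers for 0 of 2, with summed intensities of 446 and 415, of 197 and 119, and of 75.4 and 32.9. Their part in the results was not tested.

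Most mitotic kinesins held a promoter feature that the naming rule, which sets the family and not its classes, did not use. The cell cycle genes homology region (CHR) is a short element bound by the DREAM and MuvB complexes, and it is often accompanied by CCAAT boxes bound by NF-Y. Windows from 250 bases before to 50 bases after the gene start were searched on both strands for TTTGAA or TTTAAA as CHR and for CCAAT. A CHR was found in 11 of 14 mitotic kinesins, 2 of 12 transport kinesins and 0 of 7 others with a window. Of all 35116 windows, 24.0% held a CHR. Of the 9536 genes past the signal floor with a window, 21.1% did. CHR and CCAAT stood together in 9 mitotic kinesins and in 1 transport kinesin, KIF5B, against 9.27% of all windows. Within the last 100 bases before the start or after it, a CHR lay in 11 mitotic kinesins and in 0 transport kinesins, against 11.2% of all windows. A gene was counted if any of its windows matched. Of the genes past the signal floor with a window, 11.4% held both CHR and CCAAT, and 9.58% held a CHR that close.

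The 100 bases before the gene start are shown for the 6 mitotic kinesins with a whole CHR there and for KIF3A, a transport kinesin without a match, to set the element beside the values that follow. The sequences are from RefSeq on GRCh38.p14, 5′ to 3′ on the strand of the gene, and capitals mark CHR and CCAAT on either strand, so that TTCAAA and ATTGG are the same elements read on the other strand. No CHR and CCAAT matches overlapped in any kinesin window, and a match describes the letters, not binding. They lie at chr15:69414249-69414348 (plus strand) for KIF23, chr11:28108157-28108256 (minus) for KIF18A, chr10:92593030-92593129 (plus) for KIF11, chrX:70290004-70290103 (plus) for KIF4A, chr5:138179012-138179111 (plus) for KIF20A, chr3:44761694-44761793 (plus) for KIF15 and chr5:132737547-132737646 (minus) for KIF3A.
KIF23: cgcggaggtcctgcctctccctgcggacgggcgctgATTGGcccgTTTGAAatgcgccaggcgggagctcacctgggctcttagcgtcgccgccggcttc
KIF18A: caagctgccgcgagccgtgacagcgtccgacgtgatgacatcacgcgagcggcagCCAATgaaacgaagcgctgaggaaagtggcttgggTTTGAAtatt
KIF11: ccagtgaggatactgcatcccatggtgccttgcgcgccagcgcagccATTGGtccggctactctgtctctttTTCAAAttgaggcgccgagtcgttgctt
KIF4A: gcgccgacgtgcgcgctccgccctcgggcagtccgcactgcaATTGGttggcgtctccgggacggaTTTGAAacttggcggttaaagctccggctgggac
KIF20A: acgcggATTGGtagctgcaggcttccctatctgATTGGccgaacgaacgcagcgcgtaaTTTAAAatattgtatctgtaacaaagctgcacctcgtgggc
KIF15: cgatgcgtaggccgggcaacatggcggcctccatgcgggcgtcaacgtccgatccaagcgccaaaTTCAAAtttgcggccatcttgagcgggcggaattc
KIF3A: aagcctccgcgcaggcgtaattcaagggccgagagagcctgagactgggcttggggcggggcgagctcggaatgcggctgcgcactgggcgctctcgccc

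**Figure D1:**
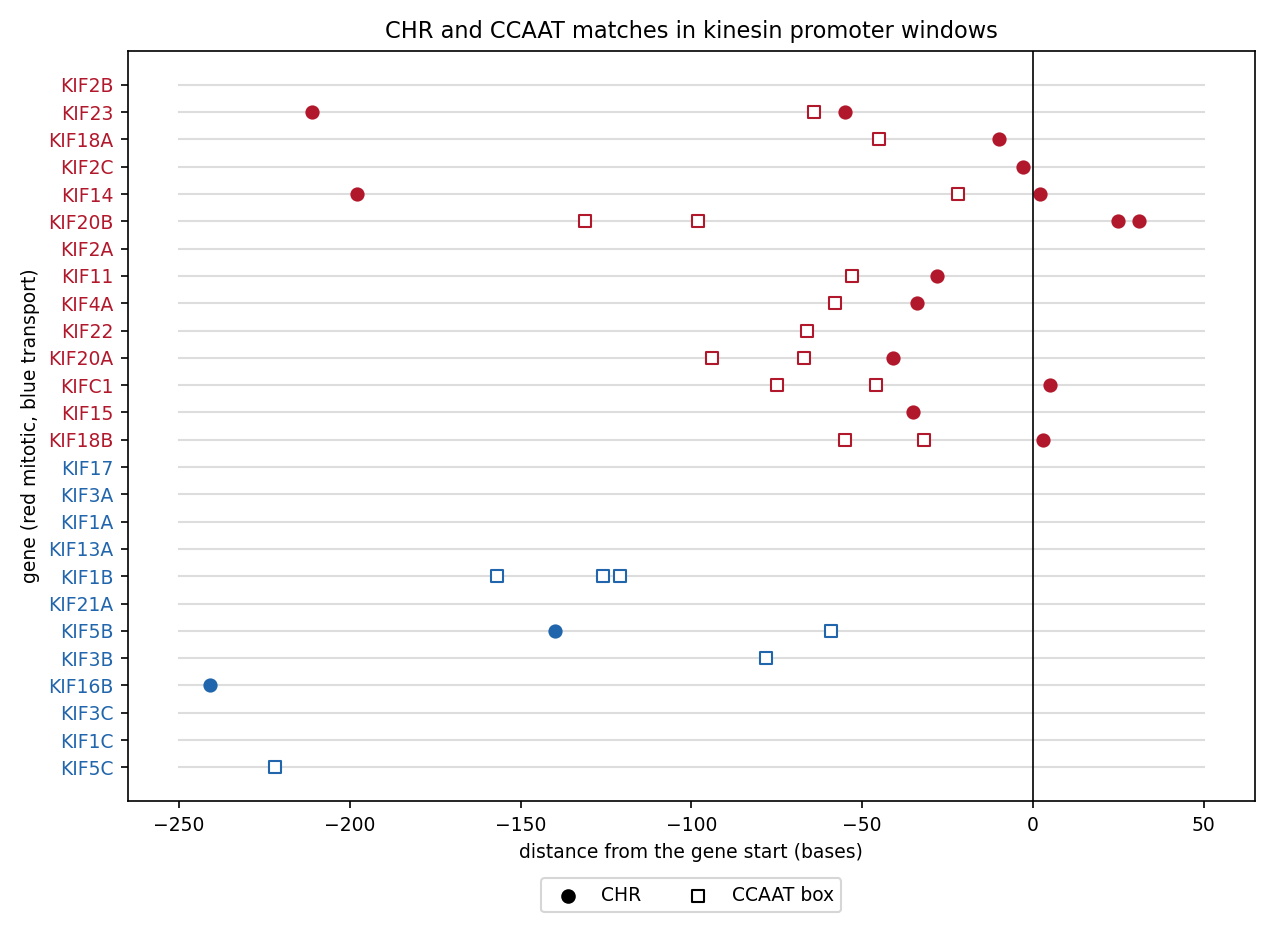
Position of CHR (filled circles) and CCAAT matches (open squares) by distance in bases from the gene start, with 1 row per mitotic (red) or transport kinesin (blue) and the windows of a gene drawn together. The 11 mitotic kinesins with a CHR have one within 100 bases before the start or after it, and the 2 CHR matches of transport kinesins, in KIF5B and KIF16B, lie farther upstream.

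Of the 39 kinesins, 29 reached the signal floor on at least 1 array and 26 on both. Among the 29, 27 lay within 1.5-fold between the arrays. The other 2, KIF5C on the higher side and KIF12 on the lower, passed the floor only through the array on which they were brighter, and neither differed by 1.5-fold once the floor replaced the dimmer value. As measured, 3.65% of 11614 genes were at least 1.5-fold higher on the array labelled PGR siRNA and 4.72% lower, by the same filter. Of kinesins, 0 of the 26 past the floor on both arrays differed by 1.5-fold, against 1.86% higher and 2.31% lower of 10840 such genes. Within that size, and read by the brightest probe set, mitotic kinesins were lower on the array labelled PGR siRNA for 10 of 13 past the floor, with a median of -0.19, and transport kinesins for 6 of 12, with a median of -0.00035. Of all 11614 genes past the floor, 46.8% were lower, with a median of 0.021. When all probe sets of a gene were averaged, 9 of 13 mitotic and 8 of 11 transport kinesins were lower, with medians of -0.11 and -0.085, against 49.2% of all 10116 genes then past the floor. The contrast between the classes thus held for the brightest probe sets and nearly closed with averaged ones, and with 1 array per condition it could not be tested.

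**Figure D2:**
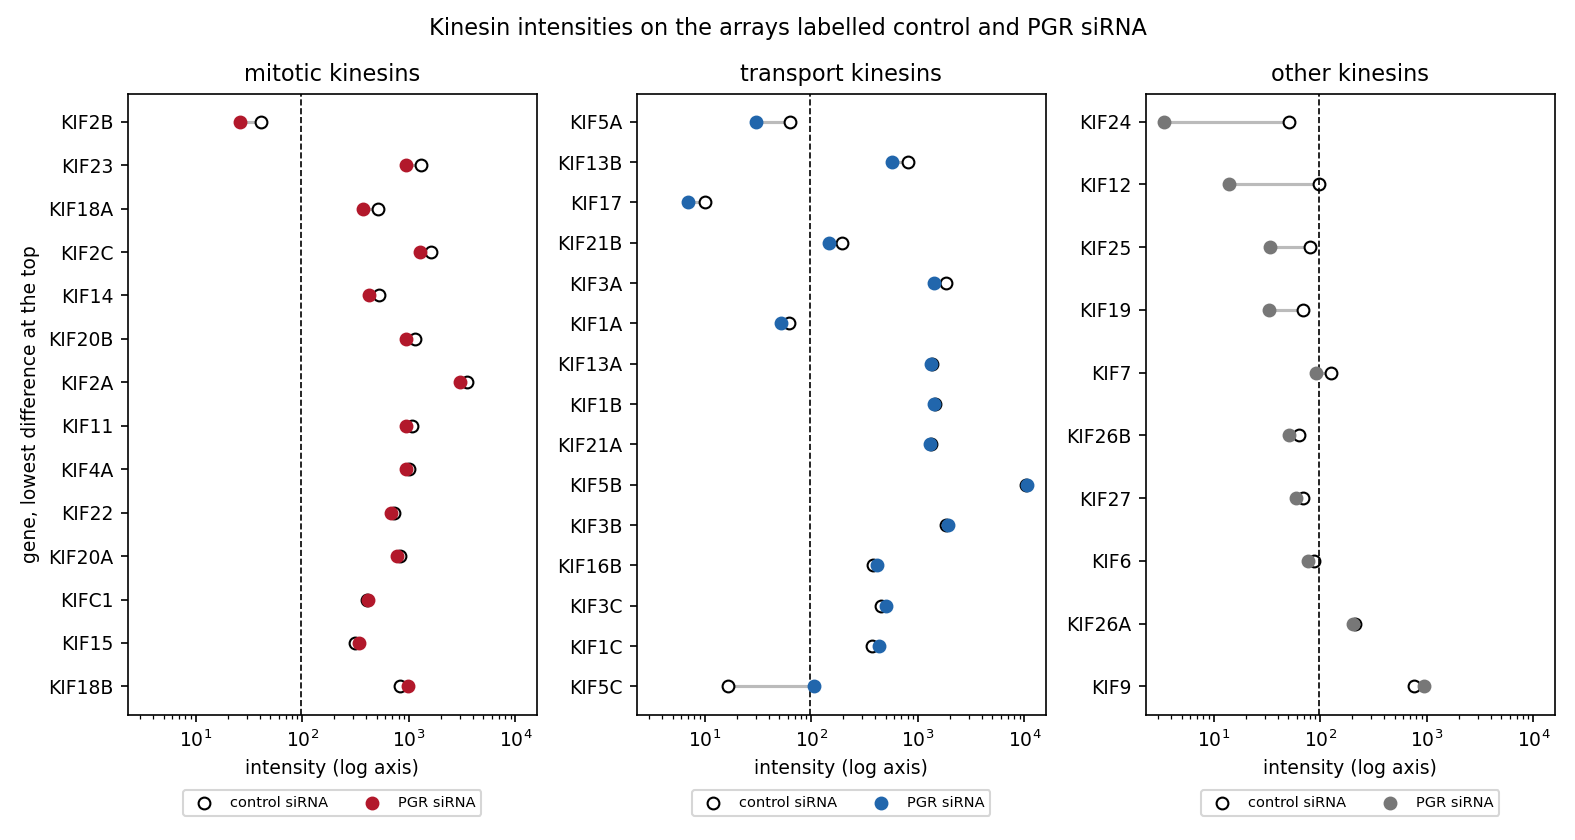
Intensity of each kinesin (log axis) on the array labelled control (open circles) and the array labelled PGR siRNA (filled circles), read by the brightest probe set, with the signal floor of 97.9 as a dashed line. Wide gaps lie left of or across the floor, as for KIF24, KIF12 and KIF5C, and most mitotic kinesins past the floor have the filled circle to the left.

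Mitotic kinesins are described by role, and the roles serve only to order them. Of those known for cytokinesis, KIF23 and KIF14 were lower with each of their probe sets. KIF23, which bundles microtubules of the central spindle, read 1307 under the control label and 941 under the PGR siRNA label, a difference of -0.47. Its second probe set gave -0.31, in the same direction. Among the 500 other genes nearest to KIF23 in signal, the 5th percentile of differences was -0.34 and their SD was 0.21. KIF14, a midbody motor that binds PRC1 and citron kinase, read 523 and 423, a difference of -0.30, with its second probe set at -0.21. KIF20B, which acts in the completion of cytokinesis, read 1131 and 936, a difference of -0.27. Its other probe sets never reached the floor and differed by -1.66 and 1.99, and with all of them averaged KIF20B stood at 0.018. KIF20A, which brings the Aurora B complex to the central spindle, read 823 and 772, a difference of -0.09 that lay well inside the scatter of genes of like signal, with an SD of 0.24.

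Several kinesins act on kinetochores, spindle poles and chromosome arms, where they set microtubule length or push chromosomes. KIF18A, which shortens kinetochore microtubules and steadies chromosomes at the spindle equator, read 512 and 373, a difference of -0.45 by a single probe set. Genes nearest to it in signal had a 5th percentile of -0.44. KIF2C, a microtubule depolymerase of centromeres that removes faulty attachments, read 1621 and 1269, a difference of -0.35. Its second probe set read 762 and 814 and gave 0.09, so that the direction of KIF2C depended on the probe set. KIF2A, a related depolymerase of spindle poles with roles outside mitosis, read 3541 and 3003, a difference of -0.24, and its second probe set gave -0.32. The chromokinesins KIF4A and KIF22, which bind chromosome arms, differed by -0.11 and -0.10. KIF4A read 1009 and 934, and its probe set may also detect KIF4B, a near-identical copy. KIF22 read 722 and 674, and its second probe set gave -0.08.

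Of the motors that slide or trim spindle microtubules, KIF11 was lower and KIF15, KIFC1 and KIF18B were higher. KIF11, a tetrameric motor that drives the poles apart, read 1069 and 934, a difference of -0.19. KIF15, which can maintain pole separation when KIF11 is inhibited, read 314 and 340.5, a difference of 0.12. KIFC1, which moves toward minus ends and pulls poles together, read 401 and 415, a difference of 0.05. KIF18B, which limits the length of astral microtubules, was the highest mitotic kinesin at 820.5 and 979.5, a difference of 0.26. All of these lay between the 5th and 95th percentiles of the 500 genes nearest in signal. KIF2B, the testis-enriched member of the depolymerases, read 41.1 and 25.9, below the floor on both arrays.

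Over the 18 probe sets of mitotic kinesins past the floor on both arrays, 14 were lower on the array labelled PGR siRNA, with a median of -0.20. Of the 5 mitotic kinesins read by more than 1 such probe set, all probe sets of 4 were lower, and KIF2C was the exception. Among the 6628 genes past the floor on both arrays and within the signal range of the mitotic kinesins, 46.6% were lower by their brightest probe set. Their median was 0.020 and their SD 0.24. That share counts genes, and some of the 18 probe sets were dimmer than that range. No share over all probe sets, or over genes with several, is given here. Among the 13, KIF23 and KIF18A lay outside the 5th to 95th percentile of their nearest genes. Fewer cells in G2 phase or mitosis, less RNA per cell and variation between single arrays cannot be told apart here, and none was tested. Of the mitotic kinesins with a CHR, 8 of 11 were lower, with a median of -0.19. KIF2A and KIF22, the 2 past the floor without one, were lower too, which is too few genes for a comparison. KIF15, KIFC1 and KIF18B, the 3 that were higher, each hold a CHR.

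**Figure D3:**
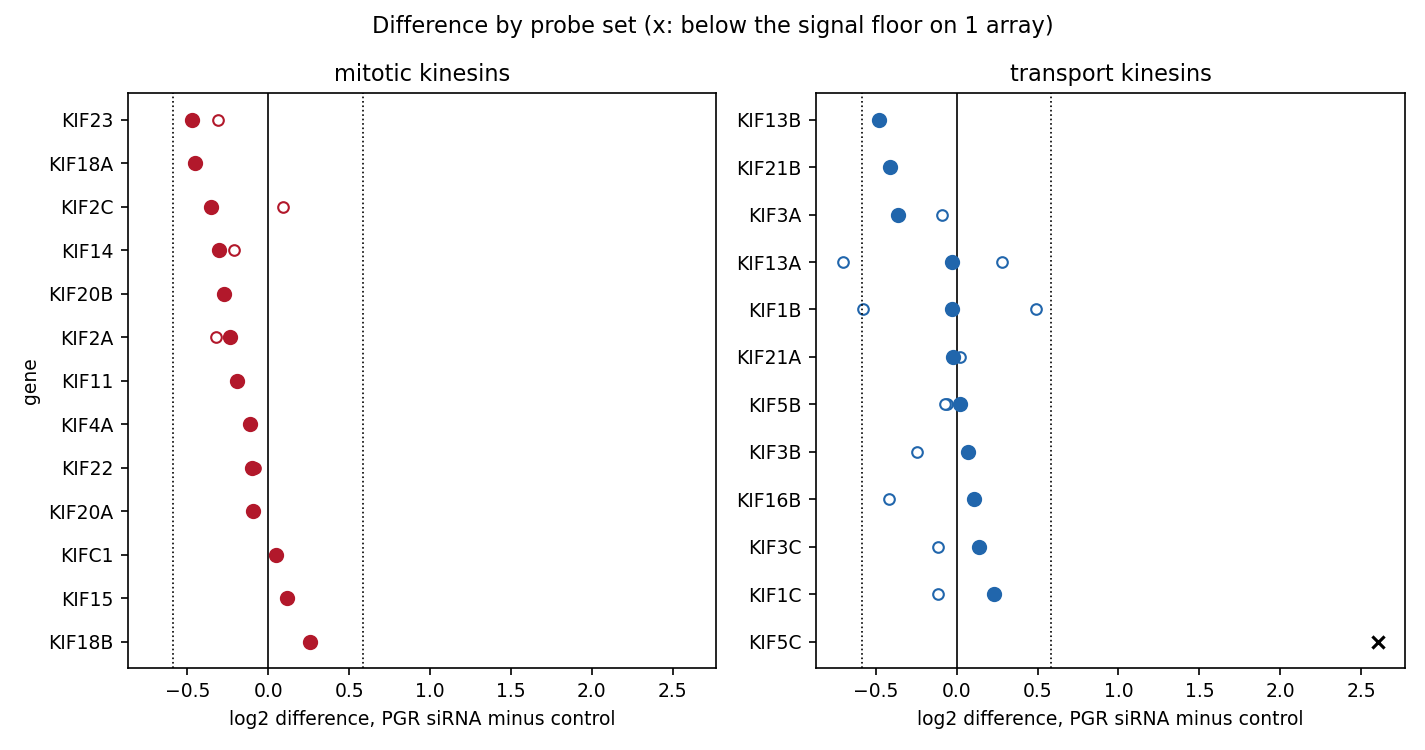
Difference on the log2 scale, PGR siRNA minus control by label, of each probe set past the floor on at least 1 array, for mitotic and transport kinesins. Filled circles mark the probe set that reads the gene, open circles its other probe sets past the floor on both arrays, the cross the probe set of KIF5C at 2.60 with its control value below the floor, and dotted lines 1.5-fold. Open circles of transport kinesins often lie on the other side of 0 from the filled one.

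By their brightest probe sets, the transport kinesins KIF5B, KIF1B, KIF13A and KIF21A read nearly the same on both arrays. They are placed together here by that closeness and not by role. KIF5B, the ubiquitous heavy chain of conventional kinesin, read 10465 and 10626, a difference of 0.02, and its other probe sets gave -0.06 and -0.07. KIF1B, which moves mitochondria and vesicles, read 1457 and 1428, a difference of -0.03, although its other probe sets past the floor gave -0.58 and 0.49. KIF13A, a motor of recycling endosomes, read 1363 and 1335, a difference of -0.03, with other probe sets at -0.70 and 0.28. For KIF1B and KIF13A the probe sets thus disagreed by more than any difference between the arrays that their brightest probe set showed. KIF21A, which restrains microtubule growth at the cell cortex, read 1315 and 1294, a difference of -0.02.

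The subunits of heterotrimeric kinesin-2, the motor of intraflagellar transport, differed in direction by their brightest probe sets only. The second probe sets of KIF3A, KIF3B and KIF3C were all lower. KIF3A read 1831 and 1422, a difference of -0.36, with its second probe set at -0.09. KIF3B, its partner, read 1829 and 1924, a difference of 0.07, with its second probe set at -0.24. KIFAP3, the accessory subunit that links the motor to cargo, read 1186 and 1284, a difference of 0.11. KIF3C, which can replace KIF3B beside KIF3A, read 456 and 502, a difference of 0.14, and its second probe set gave -0.11. KIF3A was thus the single lower subunit by its brightest probe set, and its value lay just inside the 5th percentile of its nearest genes, -0.37.

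KIF13B was the lowest transport kinesin past the floor. It binds the scaffold protein DLG1 and moves vesicles to the cell periphery, and it read 803 and 575, a difference of -0.48 by a single probe set. The 500 genes nearest in signal had a 5th percentile of -0.39, so that KIF13B, with KIF23 and KIF18A, was 1 of 3 kinesins among 26 below that mark, and 0 stood above the 95th percentile. KIF21B, a motor and microtubule regulator of neurons and lymphocytes, read 193 and 145, a difference of -0.41, inside the wide scatter at its signal, with an SD of 0.44. KIF16B, which moves early endosomes, read 382 and 412, a difference of 0.11, with its second probe set at -0.41. KIF1C, which carries integrin vesicles, read 371 and 436, a difference of 0.23, with its second probe set at -0.11.

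The neuronal transport kinesins KIF5C, KIF5A, KIF1A and KIF17 were at or near background. KIF5C, a neuron-enriched heavy chain, read 16.5 under the control label and 105 under the PGR siRNA label. With the control value raised to the floor, KIF5C was 1.07-fold higher, and its other probe sets were below the floor on both arrays at -0.28 and 2.61. KIF5A, KIF1A and KIF17, motors of axons and dendrites, were below the floor on both arrays, with readings from 6.93 to 62.8. Of the 9 transport kinesins read by more than 1 probe set past the floor on both arrays, 1, KIF3A, had all of them on the same side of 0. The 23 such probe sets of transport kinesins had a median of -0.06, and 15 were lower. Of the 10840 genes past the floor on both arrays, 46.1% were lower by their brightest probe set, with a median of 0.023. No share over all probe sets is given here.

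Of the 10 other kinesins, which act in cilia, at centrioles and in signalling or are little known, 2 reached the floor on both arrays. KIF9, a motor of motile cilia, read 751 and 949, a difference of 0.34, and its other probe sets past the floor gave -0.38 and 0.50. All of these probe sets carry a mark for sequence shared with other transcripts. KIF26A, a kinesin-like protein without motor activity, read 211 and 201, a difference of -0.06. KIF7, a regulator of Hedgehog signalling at the tip of the primary cilium, read 126 and 91.9, the latter below the floor. With that value raised to the floor, KIF7 was 1.29-fold lower. KIF12, known from bile duct and kidney epithelium, read 98.3 and 13.8. The first value stood barely past the floor and the second below it, so that the size of the difference is not known. KIF6, KIF19, KIF24, KIF25, KIF26B and KIF27 were below the floor on both arrays, with readings from 3.45 to 87.2. KIFC2 and KIFC3, minus-end motors that the naming rule leaves out, differed by 0.04 and -0.13.

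Genes for proteins that work with mitotic kinesins were lower for 13 of 17 genes, with a median of -0.10, and 0 of them differed by 1.5-fold. By the same filter, 3.65% of all genes were at least 1.5-fold higher and 4.72% lower. Of all 11614 genes past the floor, 46.8% were lower, with a median of 0.021. PLK1, the mitotic kinase that phosphorylates KIF20A and centralspindlin, read 229 and 153, a difference of -0.58. RACGAP1, which forms the centralspindlin complex with KIF23, read 2005 and 1387, a difference of -0.53. ECT2, the RhoA exchange factor that centralspindlin recruits to the cell equator, read 3598 and 2804, a difference of -0.36, with its other probe set at -0.32. KIF23 and ECT2 were thus lower in each of their probe sets past the floor, and RACGAP1 was lower by its single probe set. By brightest probe sets, CDCA8 was at -0.25, ANLN at -0.23, CCNB1 at -0.20, BIRC5 at -0.16 and NUSAP1 at -0.15. Other probe sets past the floor ran from -0.33 to 0.08 for BIRC5 and gave 0.10 for NUSAP1. Some partners read nearly alike on both arrays. PRC1, the microtubule bundler that binds KIF4A and KIF14, differed by -0.02, AURKA by -0.04, and TPX2, which targets KIF11 and KIF15 to the spindle, by -0.10. CDK1 was at -0.04, and its other probe sets past the floor ran from 0.10 to 0.21. Of the 17 partners, 4 were higher, among them AURKB at 0.18 and NUMA1 at 0.09. INCENP, the scaffold of the Aurora B complex, was higher at 0.28. HMMR, a spindle protein, was at 0.29 with its second probe set at -0.18.

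Cargo adaptors and light chains of transport kinesins were lower for 13 of 19 genes past the floor, with a median of -0.14. Transport motors were lower for 6 of 12, and all genes past the floor for 46.8%, with a median of 0.021. MAPK8IP2, a scaffold of the JIP family, was the 1 member at least 1.5-fold lower, at -0.72, against 4.72% of all genes past the floor. A second probe set of MAPK8IP2, below the floor on the control array, gave 0.49. The kinesin light chains KLC2 and KLC4 were lower at -0.42 and -0.41, each by the 1 probe set past the floor. KLC1, the other widely expressed light chain, stood at 0.01, with other probe sets past the floor from -0.47 to 0.06. RHOT1, the mitochondrial GTPase that recruits kinesin through TRAK adaptors, was highest at 0.44, with its second probe set at -0.14.

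Lists beside the kinesins differed less from all genes past the floor, of which 46.8% were lower, with a median of 0.021. Dynein and dynactin, which move cargo toward minus ends, had 13 of 24 lower and a median of -0.04, with the light intermediate chain DYNC1LI1 lowest at -0.61, its second probe set at -0.31, and the adaptors HOOK3 at -0.36 and HOOK2 at 0.40. Tubulins and microtubule regulators, the track itself, had 13 of 24 lower and a median of -0.01, from CLASP2 at -0.42, whose other probe sets ran from -0.23 to 0.17, to the alpha tubulin TUBA1B at 0.18. DNA replication licensing genes, which peak earlier in the cell cycle than mitotic kinesins, had 9 of 22 lower and a median of 0.06, from GINS3 at -0.57, with its second probe set at 0.16, to CDC45 at 0.33 among those past the floor on both arrays.

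Regulators that bind CHR and CCAAT elements or drive mitotic genes had 11 of 19 lower, against 46.8% of all genes past the floor. Their median was -0.04, which was 0.11 with averaged probe sets. LIN9, a subunit of the MuvB complex, read 201 and 123, a difference of -0.71. LIN54, the subunit that contacts the CHR, read 111 and 68.7, the latter below the floor, and was 1.14-fold lower with that value raised to the floor. As measured, these 2 members were at least 1.5-fold lower, against 4.72% of all genes past the floor. E2F1, an activator of S phase genes, was the 1 member at least 1.5-fold higher at 0.71, against 3.65% of all genes. Its second probe set gave -0.48. FOXM1 and MYBL2, activators of G2 and mitotic genes, differed by -0.05 and 0.05, NFYA, which binds CCAAT, by 0.21 with other probe sets from -0.32 to 0.47, and RBL1, a pocket protein of the DREAM complex, by -0.30. Of the 13 mitotic partners with a promoter window, 12 held a CHR, against 21.1% of the 9536 genes past the signal floor with a window.

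**Figure D4:**
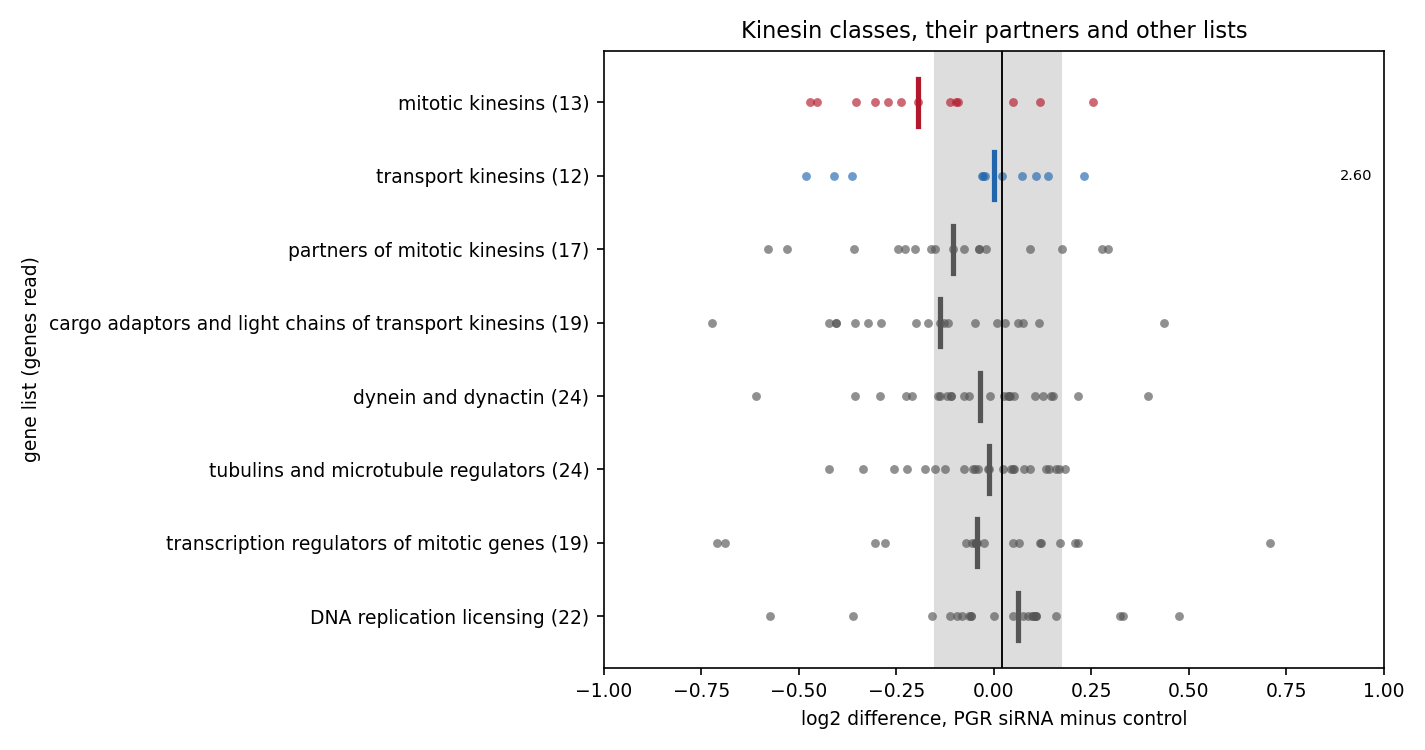
Difference on the log2 scale, PGR siRNA minus control by label, of each gene past the signal floor as points, with the median of each list as a bar and the number of genes in parentheses. The grey band spans the quartiles of all 11614 genes, from -0.15 to 0.17, with their median of 0.021 as a line. The 2.60 written at the right edge is KIF5C, whose control value was below the floor, so that the size is not known. With that value raised to the floor, KIF5C was 1.07-fold higher.

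The size of the contrast between classes depended on how a gene was read. The mitotic median minus the transport median was -0.19 on the log2 scale with the brightest probe set of each gene. With averaged probe sets, those below the floor included, it was -0.026. Other scalings and filters left it between -0.19 and -0.16.

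**Figure D5:**
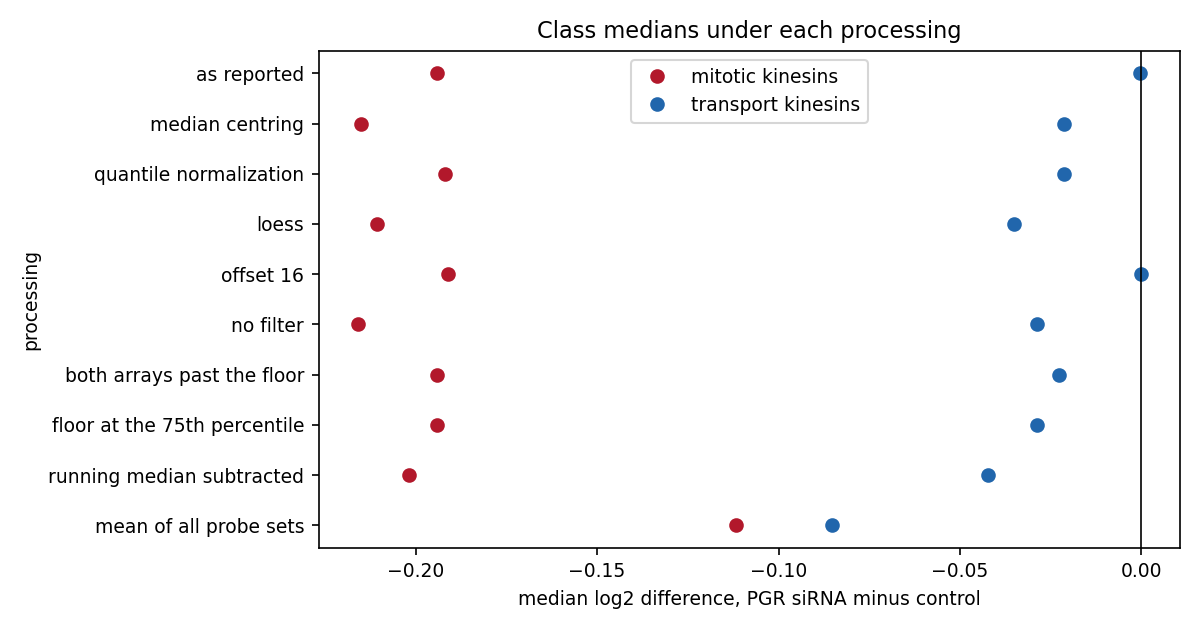
Median difference on the log2 scale, PGR siRNA minus control by label, of mitotic (red) and transport kinesins (blue), with 1 row per processing. The mitotic median lies left of the transport median in every row plotted, and the gap is smallest, at -0.026, where the probe sets of a gene were averaged.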

How the data were processed

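Total RNA of AsPC-1 cells transfected with negative control or PGR siRNA was profiled on 1 array each. The authors deposited linear intensity values, already scaled to a trimmed mean of 500.1 on both arrays. The summary method of the probes was not given in the sources used here. Probe sets were named from the platform annotation, of which 41097 had 1 symbol, 1801 several and 11777 none, and symbols were updated by gene identifier to GRCh38.p14 for 41043. A gene's value was that of its brightest probe set by mean log2(intensity + 1). Genes counted if either array reached the floor. No test was computed. Every kinesin is named. From each list of partners the genes at either end past the floor on both arrays are named, with those past 1.5-fold and some further members. The members and lists were chosen with earlier results of these data known. A trend with signal was removed by a running median, and values were raised to the floor, as alternatives added after seeing the data. The calculation was tested on simulated data with planted changes larger than those of any kinesin past the floor on both arrays. That test does not show how well smaller differences are read. Promoters were matched by symbol for 33 kinesins. KIF13B, KIF19, KIF21B, KIF26B, KIF27 and KIF5A had no entry used here. Python 3.11.15, numpy 2.4.6, pandas 2.3.3, statsmodels 0.14.6 and matplotlib 3.10.9 were used.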

Additional observations from a re-analysis of the deposited data

How the results depend on the processing

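Alternatives were the mean of all probe sets, median centring, quantile normalization, loess (span 0.7), an offset of 16, other filters, 2-fold in place of 1.5-fold, classes without KIF2A or without KIF21A and KIF21B or with KIFC2 and KIFC3 and, after seeing the data, a running median and values raised to the floor. A median is said to move if it shifted by over 0.1. The mitotic median ran from -0.22 to -0.11 and lower mitotic kinesins were 10 of 13 as reported, 9 of 13 with averaged probe sets, 8 of 9 with the floor at the 75th percentile and 11 of 14 with no filter, and no alternative turned the mitotic median positive. The transport median ran from -0.085 to 0.047. The mitotic minus transport median moved to -0.026 when probe sets were averaged. The median of the other kinesins, over few genes, moved to -0.15 with averaged probe sets, -0.039 with quantile normalization and -0.38 with no filter, and reversed to 0.14 with both arrays past the floor and 0.34 with the floor at the 75th percentile. Kinesins at least 1.5-fold higher were 0 with averaged probe sets, with both arrays past the floor, with the higher floor and with values raised to the floor. Those at least 1.5-fold lower were 0 with quantile normalization and under the last 3 of these, and 6 with no filter. The median of the regulators of mitotic genes moved to 0.11 with averaged probe sets and 0.065 with the higher floor. Of 29 kinesins, 8 changed sign under some alternative, among them 1 mitotic kinesin, KIF20B. The cause was not tested, except that filters change the genes counted. Where KIF5C and KIF12 are below the floor on 1 array, signal over background leaves no exact size. No paired analysis was possible because the groups share only 1 replicate number.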
